A study of Mus musculus with 2 samples.

Results

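The 31 genes described here encode enzymes of glycolysis, the lactate dehydrogenases, the monocarboxylate transporters that carry lactate and pyruvate across membranes, the pyruvate dehydrogenase complex and its kinases, and the enzymes of glycogen storage and breakdown. They were chosen by gene symbol, and all 31 were found among the 53717 features of the count matrices. The rule that chose them uses no measured value.

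The data are single-cell RNA-seq profiles of the hippocampus of 5xFAD mice, a transgenic mouse model of Alzheimer's disease that develops amyloid plaques. The NeuroD1 library came from 5xFAD hippocampi injected with AAV9-GFAP::NeuroD1-P2A-GFP, and the GFP library from 5xFAD hippocampi injected with AAV9-GFAP::GFP. Both were taken 3 weeks after injection, with a time label of 6 months. The design gives 3 mice per group. Cells could not be mapped to mice, and how many animals each library holds could not be told. The study addressed the conversion of astrocytes into neurons by NeuroD1, a neuronal transcription factor, and the GFAP promoter is active mainly in astrocytes. Both groups carry the 5xFAD transgenes, and no wild-type group and no uninjected group was analysed here. There was 1 library per group and therefore no replicate, so no difference between the libraries could be tested.

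Glycolysis splits glucose into pyruvate: hexokinase and phosphofructokinase act in the upper part, and the enzymes from aldolase to pyruvate kinase are grouped here as the lower part. Pyruvate either enters the mitochondrion, where the pyruvate dehydrogenase complex oxidises it, or is turned into lactate by lactate dehydrogenase. In the brain, glycogen is stored mostly in astrocytes, and lactate released by glia is taken up by neurons through monocarboxylate transporters. Most of these steps have isoenzymes encoded by separate genes that differ between cell types.

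After filtering, 12786 NeuroD1 cells and 11079 GFP cells were kept, with a median of 2556 and 1168 UMIs (unique molecular identifiers, each counting 1 captured transcript) per cell. The libraries differed in more than the vector. Ttr, the choroid plexus transcript that leads the free RNA here, took 129613 CPM (UMIs of a gene scaled to a common total) of the NeuroD1 library and 22433 CPM of the GFP library. Haemoglobin transcripts took 0.461% and 0.00108% of UMIs. Xist, transcribed from the inactive X, had 0.0413 and 103 CPM and Ddx3y, on the Y, 69.5 and 0.0618 CPM, so sex and vector cannot be told apart. Pgk1 and Pdha1 lie on the X chromosome. The virus-derived GFP feature held 627 UMIs in the NeuroD1 library and 25290 UMIs in the GFP library, and the ND1 feature held none in either. Neurod1 itself had 7.57 and 5.25 CPM. The 2 libraries shared 91 cell barcodes among the cells kept.

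Cells were clustered without the 31 genes and named from markers, which gave 12 classes with at least 30 cells in each library. The largest were astrocyte-like cells (3673 in the NeuroD1 library against 2162 in the GFP library), oligodendrocyte-like cells (3152 and 2273), microglia-like cells (1225 and 3586) and endothelial cell-like cells (2046 and 1007). The 14 astrocyte markers summed to 30047 and 37704 CPM in astrocyte-like cells and to between 471 and 722 CPM in the other 3 of these classes. For each class and library the UMIs of a gene were summed over cells and divided by all UMIs of that sum, giving CPM, with an exact Poisson 95% interval. Ratios are NeuroD1 over GFP with an exact conditional binomial 95% interval. These intervals cover counting error only, not the difference between mice. CPM values are not divided by transcript length, so levels are compared between classes and libraries, and between isoenzymes only as a share of UMIs that is set against the same share elsewhere.

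The 31 genes together took the largest share of UMIs in astrocyte-like cells, 2.04% (95% interval 2.03 to 2.05) in the NeuroD1 library against 1.65% (1.64 to 1.67) in the GFP library. In neuron-like cells, the next class, they took 0.722% and 0.652%. Choroid plexus epithelium-like cells had 0.467% and 0.585%, but Ttr alone took 457534 and 292283 CPM of that class. That lowers the share of all other genes there, so the order of these classes is uncertain. The shares were 0.284% and 0.258% in oligodendrocyte-like cells, 0.332% and 0.399% in microglia-like cells and 0.427% and 0.398% in endothelial-like ones. The excess of the astrocyte-like class lay mostly in lower glycolysis, which took 1.47% of UMIs in the NeuroD1 library against 1.16% in the GFP library. Aldoc alone supplied most of that share, at 10745 and 8498 CPM. Lower glycolysis took 0.459% and 0.374% in neuron-like cells, where Aldoc was far lower. Lactate genes took 0.2997% and 0.2147%, and glycogen genes 0.100% and 0.119%.

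**Figure D1:**
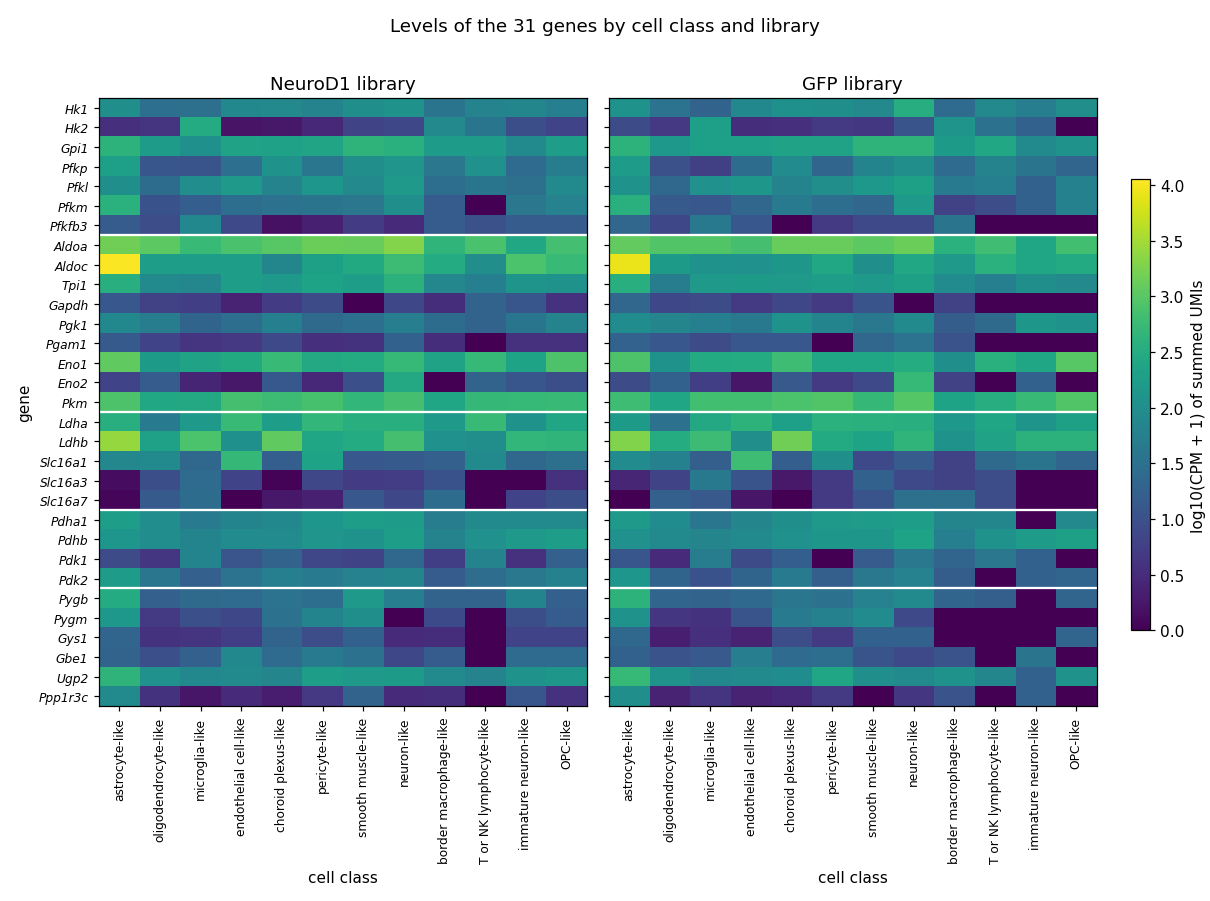
Heat maps of the 31 genes (rows, grouped by role) in 12 cell classes (columns), with the NeuroD1 library on the left and the GFP library on the right. Colour is log10 of CPM plus 1, and white lines part the roles. Aldoc in astrocyte-like cells is the brightest field in both libraries, at 10745 and 8498 CPM.

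For 23 of the 31 genes the class with the highest CPM was the same in both libraries. For 11 of these the interval of the ratio to the next class lay above 1 in both libraries: Hk2, Pfkp, Pfkm, Aldoc, Eno2, Ldhb, Slc16a1, Pdk2, Pygb, Ugp2 and Ppp1r3c. For the other 12 the lead over the next class was not separable in at least 1 library. The highest class was the astrocyte-like one for 10 genes: Pfkp and Pfkm (platelet and muscle phosphofructokinase), Aldoc (aldolase C), Ldhb (the H subunit of lactate dehydrogenase), Pdk2 (a kinase that switches off pyruvate dehydrogenase), and the glycogen genes Pygb, Pygm, Gys1, Ugp2 and Ppp1r3c. Pygb and Pygm encode the brain and muscle glycogen phosphorylases, Gys1 glycogen synthase, Ugp2 the enzyme that makes UDP-glucose, and Ppp1r3c a subunit that brings protein phosphatase to glycogen. The lead of Gys1 was not separable in either library, 1.08-fold (0.903 to 1.30) and 1.14-fold (0.197 to 45.5), nor was that of Pygm in the GFP library. Gbe1, the glycogen branching enzyme, was instead highest in endothelial cell-like cells, at 78.1 CPM in the NeuroD1 library against 52.1 CPM in the GFP library.

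The distance between the highest class and the next varied widely. Aldoc was 13.5-fold higher in astrocyte-like cells (11.99 to 15.16) than in the next class in the NeuroD1 library and 21.7-fold higher (16.4 to 29.3) in the GFP library. Ppp1r3c stood 4.36-fold (2.53 to 8.21) and 6.03-fold (1.07 to 239) above its next class. Pfkm stood 3.69-fold above neuron-like cells in the NeuroD1 library and 2.50-fold in the GFP library. Ldhb was less class-bound, 2.27-fold and 1.28-fold above the choroid plexus class, the source of cerebrospinal fluid.

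Neuron-like cells were highest for 6 genes: Hk1 (the general brain hexokinase), Pfkl, Aldoa, Pgam1, Eno2 (neuron-specific enolase) and Pdhb. Eno2 was 15.3-fold (4.16 to 128) above its next class in the NeuroD1 library and 29.9-fold (5.28 to 1187) in the GFP library. These intervals are wide because the next class held few Eno2 UMIs. Microglia-like cells were highest for Hk2, the inducible hexokinase; Pfkfb3, which makes the activator of phosphofructokinase; Slc16a3, the lactate exporter MCT4; and Pdk1. Endothelial cell-like cells were highest for Ldha (the M subunit of lactate dehydrogenase), Slc16a1 (the transporter MCT1) and Gbe1. The lead of Ldha was 1.05-fold (0.812 to 1.39) and 1.08-fold (0.866 to 1.35), over T or NK lymphocyte-like cells in the NeuroD1 library and over pericyte-like cells in the GFP library.

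Isoenzyme shares separated the classes, and most of these patterns were alike in both libraries. Aldoc made up 87.7% (87.5 to 87.9) of aldolase UMIs in NeuroD1 astrocyte-like cells and 87.9% (87.5 to 88.3) in the GFP library. In oligodendrocyte-like cells the share was 14.7% and 15.3%, but Aldoc stood there at the level that free RNA, scaled from Ttr, would give. Hk2 made up 91.2% of Hk1 and Hk2 UMIs in microglia-like cells of either library (89.1 to 93.0 and 89.4 to 92.8), against 2.48% and 6.34% in the astrocyte-like class and 0.844% and 2.97% in the endothelial one. Border macrophage-like cells, the macrophages of vessels and meninges, were nearest to microglia in this respect, with 69.4% and 83.3%. Hk2 in GFP astrocyte-like cells stood near the level that free RNA would give.

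Phosphofructokinase was mainly Pfkm in astrocyte-like cells, 56.2% (55.1 to 57.3) in the NeuroD1 library against 56.0% (53.8 to 58.2) in the GFP library, and mainly Pfkl in microglia-like cells, 78.8% (73.7 to 83.2) and 86.9% (84.1 to 89.3). Pfkp had its largest share of the 4 main classes in astrocyte-like cells, 28.3% and 25.8%, and took 54.7% and 44.5% in choroid plexus epithelium-like cells. MCT1 made up 99.3% and 98.1% of the UMIs of the 3 monocarboxylate transporters in the astrocyte-like class, and 98.9% and 98.3% among endothelial cell-like cells. In microglia-like cells MCT1 was only 30.1% and 22.5% of that sum. The remainder there was MCT4, 34.4% and 59.8%, and Slc16a7 (MCT2, the high-affinity transporter known from neurons), 35.5% and 17.6%.

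Lactate dehydrogenase differed between the libraries as well as between classes. Ldhb made up 88.4% (88.0 to 88.7) of Ldha and Ldhb UMIs in NeuroD1 astrocyte-like cells and 92.1% (91.4 to 92.8) in the GFP library. In microglia-like cells the order was the opposite, 84.2% (82.6 to 85.6) in the NeuroD1 library against 68.1% (66.7 to 69.4) in the GFP library. Endothelial cell-like cells had mostly Ldha, with an Ldhb share of 16.2% (15.04 to 17.34) and 19.2% (16.2 to 22.4). In neuron-like cells Eno2 made up 35.4% (30.5 to 40.6) of enolase UMIs in the NeuroD1 library against 61.5% (55.2 to 67.6) in the GFP library.

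**Figure D2:**
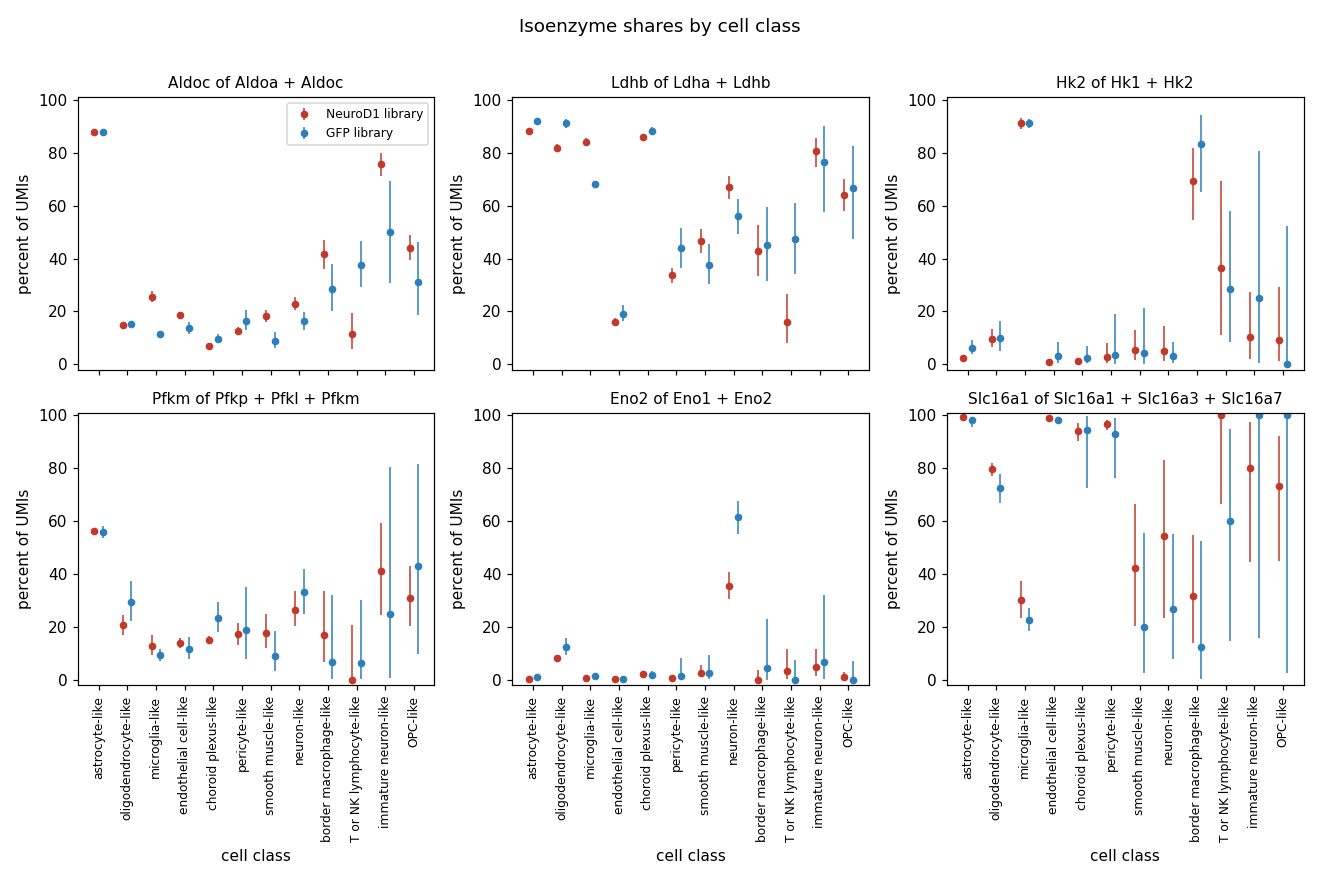
Share of UMIs (percent) that 1 isoenzyme holds within its family in each cell class, with the NeuroD1 library left of the GFP library and exact binomial 95% intervals as bars. Hk2 holds most UMIs of its pair only in microglia-like and border macrophage-like cells, Aldoc holds 87.7% and 87.9% in astrocyte-like cells, and Ldhb holds 16.2% and 19.2% in endothelial cell-like cells.

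The promoters of 3 genes that the comparisons below turn on are shown here: Ldha, Slc16a3 and Pkm (the pyruvate kinase of brain and immune cells). They are RefSeq windows of build GRCm38.p6, from 250 bases before to 50 bases after the transcript start, on the plus strand: chr7:46845554-46845853 for Ldha, chr11:120948817-120949116 for Slc16a3 and chr9:59656977-59657276 for Pkm. Capitals mark ACGTG on either strand, the letters at the core of hypoxia response elements and part of the E-box CACGTG, which holds 1 match on each strand and counts as 2 overlapping matches.
Ldha: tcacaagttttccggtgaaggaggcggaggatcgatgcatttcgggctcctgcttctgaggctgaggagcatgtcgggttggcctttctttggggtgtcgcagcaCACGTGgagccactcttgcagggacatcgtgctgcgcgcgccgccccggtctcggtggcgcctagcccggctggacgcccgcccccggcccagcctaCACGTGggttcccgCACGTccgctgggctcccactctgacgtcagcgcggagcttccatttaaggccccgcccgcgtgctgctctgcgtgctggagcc
Slc16a3: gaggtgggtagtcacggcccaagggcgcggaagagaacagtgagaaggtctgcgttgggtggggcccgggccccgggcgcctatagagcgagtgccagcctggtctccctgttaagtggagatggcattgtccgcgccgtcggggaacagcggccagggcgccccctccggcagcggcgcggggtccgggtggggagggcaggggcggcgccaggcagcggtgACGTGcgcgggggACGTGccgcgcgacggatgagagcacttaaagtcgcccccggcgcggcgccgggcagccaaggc
Pkm: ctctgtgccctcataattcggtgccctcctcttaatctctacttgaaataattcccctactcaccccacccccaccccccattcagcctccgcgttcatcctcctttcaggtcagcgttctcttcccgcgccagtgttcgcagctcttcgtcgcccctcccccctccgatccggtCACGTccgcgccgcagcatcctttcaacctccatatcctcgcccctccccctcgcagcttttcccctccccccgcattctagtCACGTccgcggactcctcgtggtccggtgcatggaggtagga
Ldha has 5 matches in this window, Slc16a3 has 2 and this Pkm window has 2, while the other Ldha window and the other Pkm window have none. At least 1 match was present in 22 of 45 windows of the 31 genes (48.9%) and in 6447 of 32851 RefSeq promoter windows of the same length (19.6%). At least 2 matches were present in 24.4% of the 45 windows and 8.21% of all. Slc16a7 had no entry. The windows of Tpi1, Pfkl and Ldhb held no match, while that of Hk2 held 2 and those of Pfkfb3 held 2 and 1. Some windows overlap, as those of Aldoa that hold the same match. A match is a description of letters, and binding was not measured.

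In astrocyte-like cells, the cells targeted by the vector, Ldha was the only one of 29 genes compared that was at least 1.5-fold higher in the NeuroD1 library, and 4 were at least 1.5-fold lower. Genes were compared where both sums together held at least 20 UMIs. Over all genes compared in this class, 9.59% were that much higher and 25.6% that much lower. The median log2 ratio of the 29 genes was -0.00 and that of all genes -0.16. Scaled by the median ratio of the class, which lay at -0.17 on the log2 scale, the split became 4 higher (Ldha, Eno1, Pkm and Ldhb) and 2 lower.

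Ldha (ENSMUSG00000063229) had 4015 UMIs, or 340 CPM (330 to 351), in the NeuroD1 astrocyte-like cells, against 477 UMIs, or 162 CPM (148 to 177), in the GFP ones. The intervals were apart, and the ratio was 2.10 (1.91 to 2.31). The excess was present within the 3 astrocyte clusters with at least 50 cells in each library. It was 347 CPM (336 to 359) against 181 CPM (132 to 242) in the cluster led by Hes5 and Btbd17, 281 (251 to 314) against 167 (146 to 189) in the cluster led by GFP and Aqp4, and 252 (182 to 341) against 158 (137 to 182) in the cluster led by Slc1a4 and Serpina3n, where the intervals met. In the Aqp4-led cluster, where cell numbers (1053 and 1275) and median UMIs (799 and 925) were closest, the ratio was 1.69 (1.42 to 2.01). The level that free RNA would give, scaled from Ttr, was 20.3 CPM in the NeuroD1 library against 21.3 CPM in the GFP library.

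Ldhb and several abundant enzymes of lower glycolysis were higher in the NeuroD1 astrocyte-like cells by less than 1.5-fold, with intervals above 1. Eno1 (enolase 1) had 1163 and 828 CPM, a ratio of 1.40 (1.35 to 1.47). Pkm had 838 and 608 CPM, a ratio of 1.38 (1.31 to 1.45), and Ldhb 2583 and 1894 CPM, a ratio of 1.36 (1.32 to 1.40). Aldoc and Aldoa, at 10745 and 8498 CPM and at 1504 and 1172 CPM, had ratios of 1.26 (1.25 to 1.28) and 1.28 (1.24 to 1.33). These differences were smaller or not separable once cells of 1 cluster were compared. Eno1 had 877 CPM in the NeuroD1 library against 953 CPM in the GFP library within the Aqp4-led cluster, a ratio of 0.921 (0.847 to 1.0002). Ldhb had 2109 and 2139 CPM there, Aldoc 8895 and 8754 CPM, and Aldoa 1246 and 1265 CPM. Pkm stayed higher, at 700 and 632 CPM, a ratio of 1.11 (1.01 to 1.22). The median log2 ratio of all genes in that cluster was -0.16.

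The clusters themselves differed in these genes and in their make-up by library. The Hes5-led cluster held 2546 NeuroD1 and 123 GFP cells, and the Serpina3n-led cluster, whose leading genes include a marker of reactive astrocytes, 70 and 712. Ldhb was 1.26-fold higher in the Hes5-led than in the Aqp4-led cluster in the NeuroD1 library and 1.29-fold in the GFP library, and Aldoc 1.24-fold and 1.28-fold. In that contrast 1 of 29 genes was at least 1.5-fold higher in the Hes5-led cluster (Slc16a1) and 1 lower in the NeuroD1 library, beside 11.4% and 12.7% of all genes, and 2 of 26 were higher and 1 lower in the GFP library, beside 12.4% and 18.9%. In the Serpina3n-led cluster Ldhb was lower than in the Aqp4-led one, at 1443 against 2139 CPM in the GFP library, a ratio of 0.675 (0.636 to 0.716). The part of cluster make-up in the class differences was not tested beyond these values.

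Slc16a1 and Gys1 were higher in the Serpina3n-led cluster. Slc16a1 had 120.2 CPM there and 68.4 CPM in the Aqp4-led cluster of the GFP library, a ratio of 1.76 (1.35 to 2.30), and its ratio in the NeuroD1 library was 2.80 (1.58 to 4.82). Gys1 had 34.8 and 12.7 CPM in the GFP library, a ratio of 2.74 (1.54 to 5.06). In that contrast 4 of 29 genes were at least 1.5-fold higher and none lower in the GFP library, where 19.2% and 10.5% of all genes were. In the NeuroD1 library, with 70 cells in the Serpina3n-led cluster, 4 of 24 were higher and 1 lower, beside 31.8% and 17.0% of all genes.

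**Figure D3:**
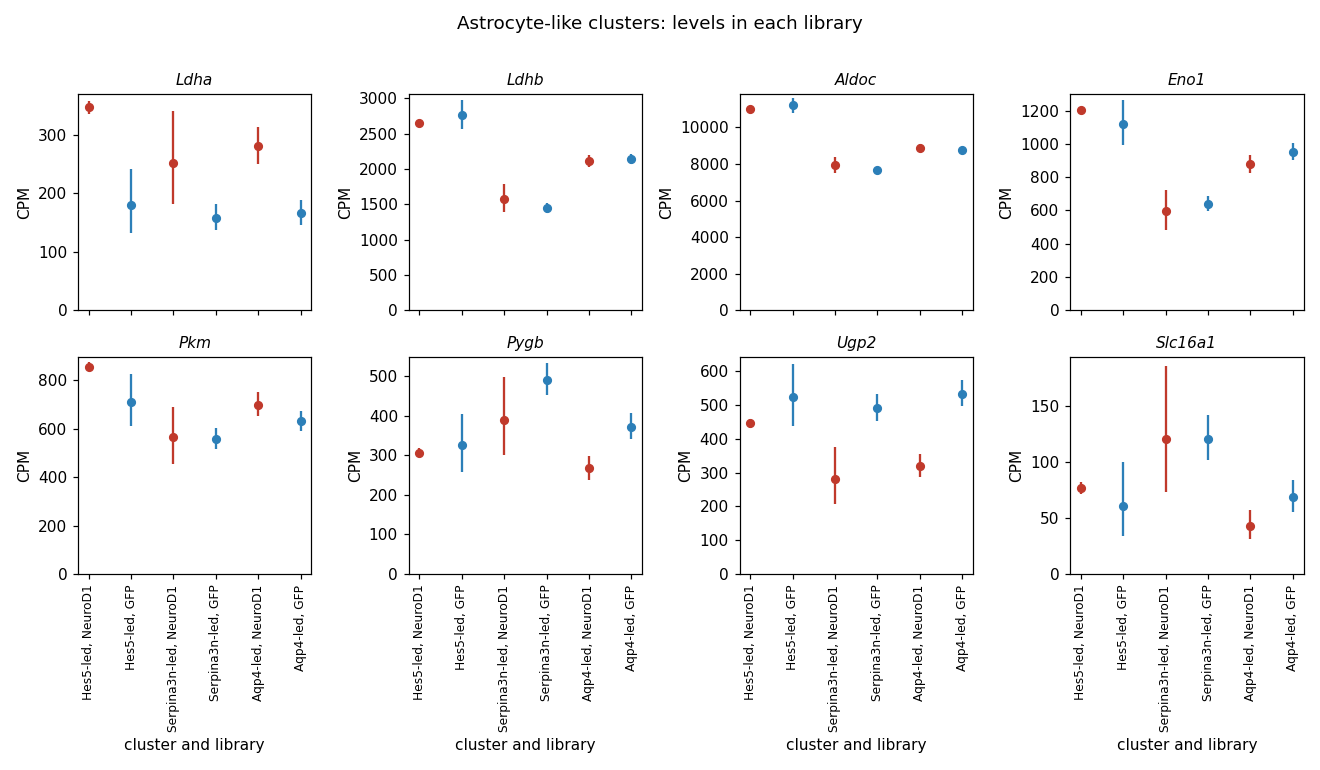
CPM of 8 genes in 3 astrocyte clusters (Hes5-led, Serpina3n-led and Aqp4-led), each with the NeuroD1 library left of the GFP library and exact Poisson 95% intervals as bars. Ldha is higher in the NeuroD1 library in each cluster, Ldhb and Aldoc follow the cluster, and Slc16a1 is highest in the Serpina3n-led cluster.

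None of the 6 glycogen genes passed 1.5-fold in astrocyte-like cells, and their median log2 ratio was -0.22, close to the -0.16 of all genes. Pygb had 304 CPM in the NeuroD1 library against 416 CPM in the GFP library, 1.37-fold lower (1.28 to 1.46). Ppp1r3c (81.4 and 105 CPM) was 1.29-fold lower (1.13 to 1.47) and Ugp2 (431 and 513 CPM) 1.19-fold lower (1.12 to 1.26). Pygm, at 146 and 113 CPM, was 1.29-fold higher (1.15 to 1.46). Pygm made up 32.4% (31.1 to 33.7) of phosphorylase UMIs in the NeuroD1 library against 21.3% (19.3 to 23.5) in the GFP library. Within the Aqp4-led cluster Ugp2 was 1.67-fold lower (1.47 to 1.90) and Slc16a1 1.60-fold lower in the NeuroD1 library. Pygb and Ppp1r3c were lower in that cluster too, 1.40-fold (1.21 to 1.62) and 1.34-fold (1.02 to 1.75). The Pygm excess of the whole class was not seen in that cluster, where its ratio was 1.006 (0.779 to 1.297). Gys1 was 1.90-fold higher (1.007 to 3.656) in that cluster, on 27 and 18 UMIs. There 3 of 27 genes were at least 1.5-fold higher and 5 lower, beside 8.55% and 22.2% of all genes.

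The 4 genes at least 1.5-fold lower in astrocyte-like cells were scarce there. Hk2 had 31 UMIs (2.62 CPM) in the NeuroD1 library and 23 UMIs (7.80 CPM) in the GFP library, 2.97-fold lower (1.66 to 5.27), and the level given by free RNA was 1.58 and 7.19 CPM. With that level subtracted, its log2 ratio was 0.46, of the other sign. The 13 microglia markers summed to 182 CPM in the NeuroD1 astrocyte-like cells, against 1855 CPM in the GFP ones. Pfkfb3 had 14.0 and 21.0 CPM, 1.51-fold lower (1.11 to 2.03), and Pdk1 7.28 and 11.2 CPM, 1.54-fold lower (0.997 to 2.32). Gapdh, the enzyme after triosephosphate isomerase, had only 11.5 and 20.4 CPM, 1.77-fold lower (1.28 to 2.41). Its level is uncertain, because 107 near-identical copies, 102 of them pseudogenes, held 1405 and 711 UMIs in the whole libraries, against 290 and 150 for Gapdh itself.

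Astrocyte-like cells with at least 1 GFP UMI were set against those with none within each library. In the NeuroD1 library 224 cells had one and 3449 had none, with median UMIs of 5214 and 2351. Pkm had 1532 and 757 CPM in these cells, a ratio of 2.02 (1.92 to 2.13), and Aldoc 7144 and 11163 CPM, a ratio of 0.640 (0.626 to 0.654). In all 3 of 29 genes were at least 1.5-fold higher and 2 lower, beside 13.5% and 13.2% of all genes. In the GFP library, with 1355 cells against 807, Slc16a1 had 101.8 and 66.2 CPM, a ratio of 1.54 (1.16 to 2.06), and Ldha had a ratio of 1.43 (1.16 to 1.76). There too 3 of 29 genes were higher and 2 lower, beside 8.38% and 9.08% of all genes. A GFP UMI is more likely to be seen in a deeper cell, and the part of depth in these contrasts was not tested.

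**Figure D4:**
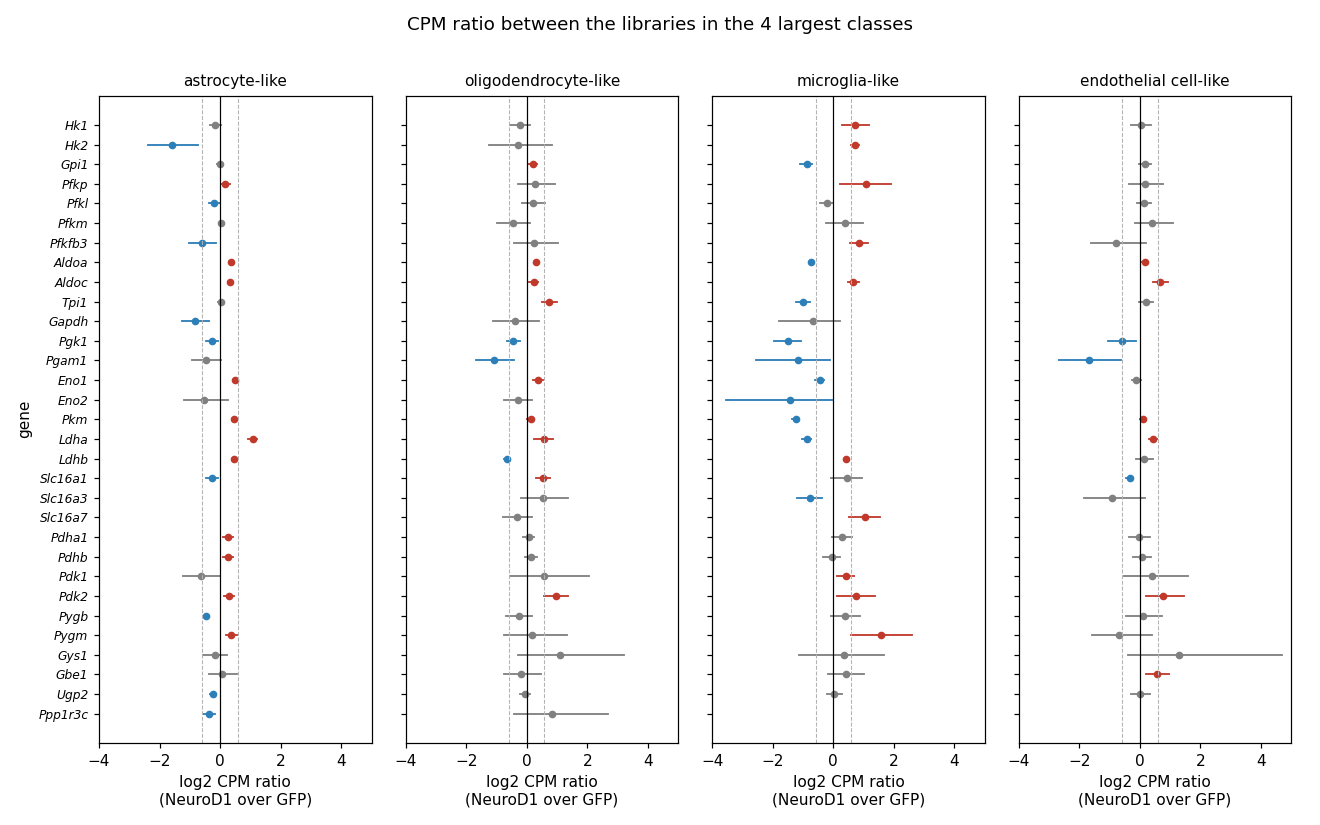
Log2 ratio of CPM, NeuroD1 over GFP, for each gene compared in the 4 main classes, with 95% intervals as lines. Red marks intervals wholly above 1-fold, blue wholly below, grey those that include it, and dashed lines 1.5-fold. Lower glycolysis lies to the left in microglia-like cells, and Ldha lies farthest right in astrocyte-like cells, at 1.07.

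Microglia-like cells had the most genes past 1.5-fold of the 4 main classes: 8 of 30 higher and 10 lower in the NeuroD1 library. Over all genes compared in the class, 36.9% were higher and 15.8% lower. The median log2 ratio was 0.32 for the 30 genes and 0.35 for all genes. Scaled by the median ratio of the class, which lay at 0.42, the split became 3 higher and 12 lower. By role, 4 of 7 upper glycolysis genes were higher and 1 lower, while 7 of 9 lower glycolysis genes were lower and 1 higher, with medians of 0.72 and -0.99.

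The lower genes ran through most of the pathway after hexokinase. Pkm had 712 UMIs (281 CPM) in the NeuroD1 microglia-like cells, against 3642 UMIs (661 CPM) in the GFP ones, 2.35-fold lower (2.17 to 2.55). Pgk1 (phosphoglycerate kinase), at 19.4 and 55.0 CPM, was 2.84-fold lower (2.10 to 3.93), and Tpi1 (triosephosphate isomerase), at 74.7 and 148 CPM, 1.99-fold lower (1.70 to 2.34). Ldha and genes of earlier steps were among them. Ldhb, which made up most lactate dehydrogenase UMIs in this class, was not past 1.5-fold in either direction. The lactate genes together took 0.103% of UMIs in the NeuroD1 library against 0.0949% in the GFP library. Ldha, at 152 and 280 CPM, was 1.85-fold lower (1.65 to 2.07), Gpi1 (glucose-6-phosphate isomerase), at 105 and 194 CPM, also 1.85-fold lower (1.61 to 2.12), and Aldoa, at 540 and 891 CPM, 1.65-fold lower (1.56 to 1.75). MCT4 (Slc16a3) had 24.9 and 42.5 CPM, 1.71-fold lower (1.29 to 2.29). Pgam1 and Eno2 were also lower, from 8 and 41 UMIs and from 4 and 26 UMIs, and for Gapdh the interval (0.854 to 3.43 as a fold lower) included 1.

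Genes higher in microglia-like cells of the NeuroD1 library included Hk2 and Pfkfb3, which act on the early steps. Hk2 had 310 and 189 CPM, 1.64-fold higher (1.49 to 1.80), and Pfkfb3 76.2 and 42.3 CPM, 1.80-fold higher (1.48 to 2.19). Relative to that median these were 0.30 and 0.43 on the log2 scale, short of 1.5-fold. MCT2 (Slc16a7) had 25.7 and 12.5 CPM, 2.05-fold higher (1.44 to 2.92). Pygm (8.69 and 2.91 CPM), Pdk2 (16.2 and 9.63 CPM) and Hk1 (30.02 and 18.16 CPM) were higher too. Aldoc (185 and 117 CPM) and Pfkp (10.3 and 4.90 CPM) stood near or under the level given by free RNA, 307 and 146 CPM for Aldoc, at least in the NeuroD1 library, where that level was 10.1 CPM for Pfkp.

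The make-up of the class also differed between the libraries, and its part in these differences was not tested beyond the values within clusters below. The cluster led by Cst7, with Clec7a, Lpl and Trem2, genes known from plaque-associated microglia, held 16 NeuroD1 and 2887 GFP cells. The Tmem119-led cluster, with the homeostatic genes P2ry12 and Cx3cr1, held 560 and 616, and the cluster led by Il1a and Tnf 649 and 83. The Cst7-led cells of the GFP library were therefore set against the Tmem119-led cells of the same library.

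In that contrast 7 of 28 genes were at least 1.5-fold higher in Cst7-led cells and 3 lower, where 13.5% of all genes were higher and 32.1% lower. The median log2 ratio was 0.09 for the 28 genes and -0.27 for all. Tpi1 had 161 CPM in Cst7-led cells and 62.2 CPM in Tmem119-led cells, a ratio of 2.59 (1.86 to 3.73). MCT4 had 46.1 and 19.0 CPM, a ratio of 2.43 (1.33 to 4.93), and Pkm 710 and 335 CPM, a ratio of 2.12 (1.83 to 2.46). Ldha had 299.7 and 152 CPM, a ratio of 1.97 (1.59 to 2.47), Aldoa 951 and 494 CPM, and Pfkl, the main microglial phosphofructokinase, 117 and 70.8 CPM. Pygb was the other gene past 1.5-fold, with an interval that included 1 (0.838 to 5.29).

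The 3 lower genes in Cst7-led cells were Hk2, Ldhb and Aldoc. Hk2 had 172 CPM in Cst7-led cells and 314 CPM in Tmem119-led cells, a ratio of 0.547 (0.466 to 0.646). Ldhb had 546 and 985 CPM, a ratio of 0.554 (0.506 to 0.608). Median UMIs per cell were 1450 and 825. With every cell thinned to 500 UMIs, 7 genes were past 1.5-fold upward and 4 downward.

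**Figure D5:**
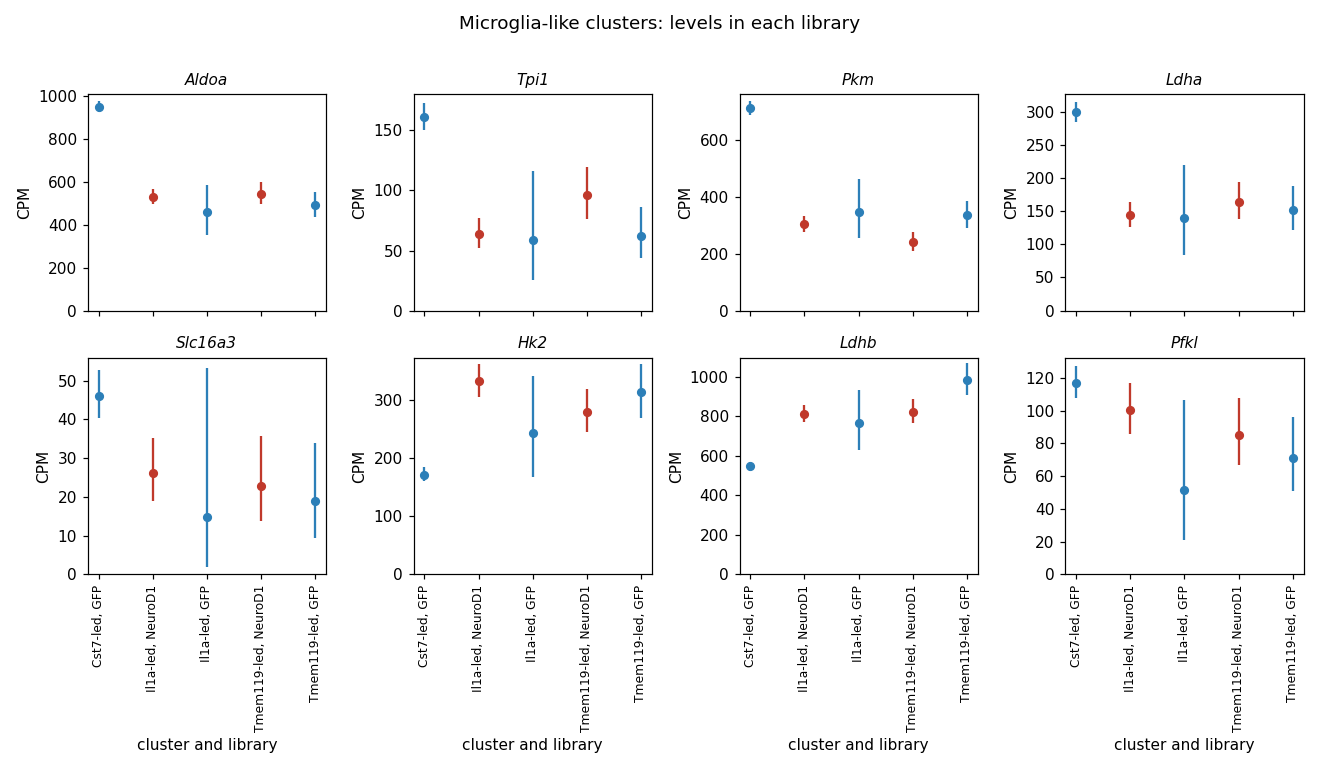
CPM of genes in the microglia clusters: Cst7-led cells of the GFP library, and Il1a-led and Tmem119-led cells with the NeuroD1 library left of the GFP library. Bars are exact Poisson 95% intervals. Pkm, Tpi1, Ldha, Aldoa and Slc16a3 are highest in Cst7-led cells, where Hk2 and Ldhb are lowest.

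Within the Tmem119-led cluster, which both libraries filled, the library difference was smaller: 6 of 24 genes were at least 1.5-fold higher and 2 lower in the NeuroD1 library, beside 24.5% and 12.4% of all genes. Aldoa had 545 CPM in the NeuroD1 library against 494 CPM in the GFP library, Ldha 164 and 152 CPM, and MCT4 22.8 and 19.0 CPM. For these the sign was opposite to that of the whole class, as it was for Tpi1, at 95.9 and 62.2 CPM, a ratio of 1.54 (1.03 to 2.35), and for Hk2, at 280 and 314 CPM. Except for Tpi1, these differences were not separable. The intervals were 0.950 to 1.28 for Aldoa, 0.820 to 1.43 for Ldha, 0.542 to 2.79 for MCT4 and 0.732 to 1.09 for Hk2. The median log2 ratio of all genes in this cluster was 0.18. Pkm remained lower, at 240 and 335 CPM, as did Gpi1, 1.67-fold lower (1.21 to 2.29), and Pgk1, 3.10-fold lower (1.56 to 6.53).

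Pfkfb3 was highest in the Il1a-led cluster. It had 91.3 CPM in Il1a-led cells and 48.0 CPM in Tmem119-led cells of the NeuroD1 library, a ratio of 1.90 (1.34 to 2.77), and 103 and 46.7 CPM in the GFP library, a ratio of 2.22 (1.07 to 4.38). It was the 1 gene of 26 past 1.5-fold upward in the NeuroD1 library and the 1 of 16 in the GFP library, where 9.07% and 18.2% of all genes were. At least 1.5-fold lower in Il1a-led cells were 6 of 26 and 3 of 16 genes, beside 18.9% and 21.0% of all genes. Between the libraries Pfkfb3 was level within the Tmem119-led cluster, at 48.0 and 46.7 CPM.

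In oligodendrocyte-like cells 4 of 31 genes were at least 1.5-fold higher in the NeuroD1 library and 2 lower, beside 11.9% and 15.5% of all genes. The median log2 ratio was 0.18 for the 31 genes and 0.03 for all. Pdk2, a brake on pyruvate entry into the mitochondrion, had 37.9 CPM in the NeuroD1 library against 19.4 CPM in the GFP library, 1.95-fold higher (1.496 to 2.583). Tpi1 had 85.5 and 50.7 CPM, 1.69-fold higher, with an interval above 1. Gys1 and Ppp1r3c were also past 1.5-fold, on 30 and 4 UMIs and on 31 and 5 UMIs, with intervals that included 1.

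Ldhb was lower in oligodendrocyte-like cells, at 208 CPM in the NeuroD1 library against 326 CPM in the GFP library, 1.57-fold (1.46 to 1.69), while Ldha was higher, at 46.1 and 31.3 CPM, 1.47-fold (1.19 to 1.84). The Ldhb share of the pair was 81.8% and 91.2%. MCT1, through which oligodendrocytes supply lactate to axons, had 84.3 and 58.6 CPM, 1.44-fold higher (1.23 to 1.69). Pgam1 was 2.09-fold lower (1.35 to 3.21) at 5.51 and 11.5 CPM. Aldoc, at 186 and 159 CPM, was at the level given by free RNA, 186 and 163 CPM.

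The class was split by library between a Mobp-led cluster (2539 and 254 cells) and a Gstp1-led cluster (511 and 2010 cells). Within the Gstp1-led cluster the same directions were seen for Pdk2, 2.34-fold higher (1.495 to 3.659), Tpi1, 1.90-fold higher (1.44 to 2.49), and Ldha, 1.60-fold higher (1.11 to 2.29), and Ldhb was lower by a similar or larger fold, with an interval of 1.68 to 2.39. There 4 of 25 genes were higher and 3 lower, beside 14.4% and 15.5% of all genes. Between clusters Ldhb was higher in Mobp-led cells, 1.35-fold in the NeuroD1 library and 1.34-fold in the GFP library, opposite to the direction between libraries. In that contrast 4 of 31 genes were at least 1.5-fold higher and 1 lower in Mobp-led cells of the NeuroD1 library, beside 9.85% and 10.2% of all genes, and 4 of 25 were higher and 3 lower in those of the GFP library, beside 10.6% and 12.1%.

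In endothelial cell-like cells 3 of 26 genes were at least 1.5-fold higher in the NeuroD1 library (Aldoc, Pdk2 and Gys1) and 5 lower, beside 21.9% and 12.5% of all genes. The median log2 ratio was 0.12 for the 26 genes and 0.15 for all. MCT1 had 495 CPM in the NeuroD1 library against 623 CPM in the GFP library, 1.26-fold lower (1.16 to 1.36), and Ldha 559 and 413 CPM, 1.36-fold higher (1.24 to 1.49). Pdk2 was 1.74-fold higher (1.15 to 2.75). Aldoc was under the level given by free RNA in this class, 178 and 111 CPM against 223 and 159 CPM. Gys1 rested on 28 and 2 UMIs.

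Of the 5 lower genes, Pgam1 (22 and 15 UMIs) and Pgk1 (28.4 and 42.8 CPM, 1.51-fold, 1.09 to 2.05) had intervals below 1, and Pfkfb3, Slc16a3 and Pygm did not. The endothelial clusters were again filled unequally, with 1683 and 125 cells in the Sox18-led, 209 and 869 in the Apold1-led and 154 and 13 in the Ackr1-led cluster, which carries venous markers. Within the Apold1-led cluster MCT1 was 1.64-fold lower (1.33 to 2.06) in the NeuroD1 library, at 415 and 682 CPM. There 3 of 20 genes were at least 1.5-fold higher and 3 lower, beside 16.0% and 21.8% of all genes. Between the Sox18-led and Apold1-led clusters, 7 of 25 genes were higher and 3 lower in Sox18-led cells of the NeuroD1 library, beside 23.7% and 14.9% of all genes. In the GFP library 4 of 20 were higher and 4 lower, beside 17.3% and 14.2%, MCT1 being lower at 408 against 682 CPM. In the NeuroD1 library Pfkfb3 was 4.82-fold higher (2.45 to 9.41) in Ackr1-led than in Sox18-led cells, at 20.7 and 4.30 CPM. That contrast had 2 of 26 genes at least 1.5-fold higher and 4 lower, beside 11.8% and 14.2% of all genes.

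Smaller classes held fewer UMIs. Border macrophage-like cells (165 and 158) had 3 of 15 genes at least 1.5-fold higher in the NeuroD1 library and 2 lower, beside 19.5% and 18.7% of all genes. Oligodendrocyte precursor-like cells (110 and 32) had 2 of 16 higher and 3 lower, beside 26.9% and 18.4%. In choroid plexus epithelium-like cells (878 and 255) 1 of 26 genes was at least 1.5-fold higher and 4 lower, beside 8.65% and 34.8% of all genes. The higher gene was Gys1, at 18.6 and 8.01 CPM, and Pgk1 was 2.05-fold lower (1.68 to 2.48). In neuron-like cells (174 and 198) 5 of 20 were higher and 5 lower, beside 35.6% and 25.6%. There Hk1 had 120 CPM in the NeuroD1 library against 328 CPM in the GFP library, 2.74-fold lower (1.94 to 3.88), and Eno2 281 and 519 CPM, 1.85-fold lower (1.45 to 2.35). These cells were not alike in the libraries: a Reln-led cluster held 167 and 73 of them and a Thy1-led cluster, with Slc17a7 and Camk2b of excitatory neurons, 7 and 125. In immature neuron-like cells (121 and 36), whose leading genes include Neurod1, Sox11 and Igfbpl1, 4 of 14 genes were higher and 1 lower, beside 25.5% and 18.6%. The lower gene was Pgk1, at 36.0 and 139 CPM.

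Pericyte-like cells (745 and 303) had 4 of 21 genes higher and 2 lower, beside 23.2% and 16.7% of all genes, and MCT1 had 225 and 103 CPM there, 2.19-fold higher (1.47 to 3.40). The 14 endothelial markers summed to 12410 and 6210 CPM in pericyte-like cells, and their part in this result was not tested. In smooth muscle-like cells (245 and 233) 4 of 20 were higher and 1 lower, beside 19.8% and 15.3%, with Pygb 2.36-fold higher (1.42 to 4.14) at 147 and 62.2 CPM. In T or NK lymphocyte-like cells (58 and 121) 2 of 9 were higher and 2 lower, beside 30.4% and 16.3%, with Ldha at 532 and 240 CPM, 2.22-fold higher (1.40 to 3.57).

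Other genes of the same pathways, were counted by list. Of 5 glucose uptake genes, none was higher and 3 were lower in astrocyte-like cells, beside 9.59% and 25.6% of all genes. These 3, Slc2a4, Slc2a5 and Slc2a6, held at most 16 UMIs in either library. In microglia-like cells 1 of 5 was higher and 2 lower, beside 36.9% and 15.8%. Slc2a5, the fructose transporter that marks homeostatic microglia, had 620 CPM in the NeuroD1 library against 171 CPM in the GFP library, 3.63-fold higher (3.35 to 3.94). Slc2a6 had 1.19 and 15.3 CPM, 12.9-fold lower (4.26 to 63.7). In endothelial cell-like cells neither of the 2 uptake genes compared passed 1.5-fold. Slc2a1, the glucose transporter of the blood-brain barrier, had 2298 and 1646 CPM there, 1.40-fold higher (1.33 to 1.46).

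Of the lists for pyruvate and lactate transport, 2 of 7 genes were lower in astrocyte-like cells and none higher, beside 25.6% and 9.59% of all genes. Mpc1, a subunit of the mitochondrial pyruvate carrier, was lower in each main class: 136 and 205 CPM in astrocyte-like, 119 and 249 CPM in oligodendrocyte-like, 61.6 and 148 CPM in microglia-like and 40.5 and 61.4 CPM in endothelial cell-like cells. Its partner subunit Mpc2 was 1.48-fold higher in astrocyte-like cells, at 347 and 235 CPM. For the other parts of the pyruvate dehydrogenase complex, 4 of 7 genes were higher and none lower in endothelial cell-like cells, beside 21.9% and 12.5% of all genes. Dld, its lipoamide dehydrogenase, was among them, at 61.5 and 35.8 CPM. Of 17 other glycogen genes, 5 were lower and none higher in astrocyte-like cells, beside 25.6% and 9.59% of all genes. In microglia-like cells 5 of 17 were higher and 3 lower, beside 36.9% and 15.8%. In the pentose phosphate pathway Rpia, ribose-5-phosphate isomerase, was 3.74-fold higher (1.98 to 7.97) in astrocyte-like cells and 2.81-fold higher (2.12 to 3.72) in microglia-like cells.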

How the data were processed

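Cells were isolated from dissociated hippocampus; the labels name both 10x Genomics and a SCOPE-chip microwell device, and which was used could not be settled. The authors deposited, per library, a matrix of UMI counts per feature and barcode, with no normalization found in the values. The submitters' processing notes list FastQC, fastp, cutadapt, STAR, featureCounts and build mm39, with no versions.

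Barcodes with under 200 genes or over 20% mitochondrial UMIs (131 for NeuroD1 and 104 for GFP) and Scrublet doublets (485, or 3.65%, and 556, or 4.78%) were removed. Both libraries were clustered jointly (scanpy 1.11.5, 3000 variable genes, 30 components, 15 neighbours, Leiden resolution 1.0). Left out of the clustering were the 31 genes, the genes of the pathway lists, Neurod1, and mitochondrial, ribosomal, haemoglobin, sex-linked and vector genes. Genes whose symbols start with Fos, Jun, Egr or Ier were left out too. Of 28 clusters, 26 were named from marker lists. Counts were summed per class and library and expressed as CPM. Log2 ratios added 0.5 UMI. A gene counted as higher or lower past 1.5-fold. The level given by free RNA was an estimate, the library CPM of a gene times the ratio of Ttr CPM in the class to Ttr CPM in the library. For Aldoc it exceeded the level seen in microglia-like and endothelial cell-like cells of both libraries. It can therefore be too high, and it was not calibrated. Interval and ratio code (scipy 1.17.1, numpy 2.4.6, Python 3.11.15) was tested on simulated data. Near-identical copies were sought with BLAST 2.17.0 in the last 400 bases of transcripts, at 95% identity over 200 bases. Such copies were found for 9 of the 31 genes. For Ldhb they held 2373 UMIs in the NeuroD1 and 1135 in the GFP library, against 51643 and 12567 for Ldhb itself. For Gpi1 they held 763 and 450 UMIs, against 12098 and 3811.

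The named genes are all 31, plus at most 6 of each pathway list, those with the highest CPM in a main class. Members, lists and cluster contrasts were chosen with earlier results of these data known. There were 2 libraries with 17504950 UMIs or more each, 51236521 in the NeuroD1 library. With 1 library per group no p-value was computed. Alternatives tried were other UMI minimums, scalings, mitochondrial limits and resolutions, doublets kept, thinning to 500 UMIs, means over cells, free RNA subtracted and single shared clusters.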

Additional observations from a re-analysis of the deposited data

Results flagged for a closer look

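For 4 genes the NeuroD1 to GFP difference pointed in opposite directions in 2 cell classes, past 1.5-fold in both; the difference between the classes was not tested, since there is 1 library per group. Ldha had a log2 ratio of 1.07 in astrocyte-like cells and -0.88 in microglia-like cells. Hk2 had -1.58 in astrocyte-like cells, on 31 and 23 UMIs in the NeuroD1 and GFP libraries, and 0.72 in microglia-like cells. Pfkfb3 had -0.60 in astrocyte-like cells and 0.85 in microglia-like cells. Tpi1 had 0.75 in oligodendrocyte-like cells and -0.99 in microglia-like cells. Within the Tmem119-led microglia cluster the log2 ratios were 0.11 for Ldha, whose ratio of 1.08 had an interval of 0.8204 to 1.43, -0.17 for Hk2, 0.03 for Pfkfb3 and 0.61 for Tpi1. With free RNA subtracted, the value of Hk2 in astrocyte-like cells was 0.46.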

How the results depend on the processing

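No paired analysis was possible because each group is 1 library, and for the same reason no library could be left out. Single-gene results past 1.5-fold numbered 39. They were genes in a main class whose interval excluded 1, and genes in the Cst7-led contrast within the GFP library. Of their 278 alternative values, 228 kept the direction and moved little, 40 moved and 10 turned the direction. Of 148 alternative values for the 16 group results, 126 stayed close and 22 moved. In astrocyte-like cells the count of higher genes (1) was 4 when scaled by the median ratio and 3 in the shared cluster, and that of lower genes (4) was 2 when scaled by the median ratio, 2 as a mean over cells and 1 with free RNA subtracted. In oligodendrocyte-like cells the higher count (4) was 2 at a minimum of 100 UMIs and 9 with free RNA subtracted, and the lower count (2) was 1 at 100 UMIs, 1 with doublets kept and 4 with free RNA subtracted. In microglia-like cells the higher count (8) was 5 at 100 UMIs, 3 when scaled by the median ratio and 3 when thinned, and the lower count (10) was 6 when thinned and 2 in the shared cluster. In endothelial cell-like cells the lower count (5) was 1 at 100 UMIs, 0 when thinned, 2 as a mean over cells and 3 in the shared cluster, the higher count (3) was 1 when thinned, and the median log2 ratio (0.12) was 0.26 when thinned. The Cst7-led contrast, whose alternatives were chosen after seeing the data, had 5 lower genes (3) with free RNA subtracted. In the shared cluster the sign turned for Hk2 (-0.17), Aldoa (0.14), Tpi1 (0.61), Ldha (0.11) and Slc16a3 (0.23) of microglia-like cells and for Pgk1 (0.22) of endothelial cell-like cells. Among these, only Tpi1 had an interval that excluded 1 there. With free RNA subtracted it turned for Hk2 of astrocyte-like cells (0.46), Pfkp of microglia-like cells (-1.18) and Aldoc of endothelial cell-like cells (-2.25, and -0.088 with doublets kept). The causes were not tested. Minimums of 5 and 100 UMIs were not run for the count of genes highest in the same class, which ranged from 17 to 24 around 23. Depth limits genes under 100 UMIs in a class, and Gapdh cannot be separated from its copies.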

Other observations

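Slc16a6, another transporter of the monocarboxylate family, had 152 CPM in microglia-like cells of the NeuroD1 library and 65.7 CPM in those of the GFP library, a ratio of 2.31 (1.999 to 2.677). Bsg, the chaperone that brings MCT1 and MCT4 to the cell surface, was 1.39-fold lower (1.37 to 1.41) in endothelial cell-like cells of the NeuroD1 library. Tkt, transketolase of the pentose phosphate pathway, was 1.41-fold lower in the NeuroD1 astrocyte-like cells than in the GFP ones. Taldo1, its transaldolase, was 1.38-fold higher in oligodendrocyte-like cells of the NeuroD1 library.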
